A study of Mus musculus with 8 samples.

Results

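The 14-3-3 proteins are small acidic adaptors that work as dimers and bind phosphorylated serine or threonine in short motifs of many client proteins. Binding can hold a client in the cytoplasm, hide a catalytic or localization surface, or protect the phosphate from removal. In fibroblasts the transcriptional cofactors YAP and TAZ are among the best known clients, because phosphorylation by LATS kinases creates 14-3-3 sites that retain them outside the nucleus. Mammals have 7 genes for these proteins, and the 6 that were chosen by name here are Ywhab (beta), Ywhae (epsilon), Ywhag (gamma), Ywhah (eta), Ywhaq (theta, also called tau) and Ywhaz (zeta). All 6 were among the 12528 genes of the deposited table and all 6 passed the filter on low values, which left 12494 genes for testing. The table lists no row for the other mammalian gene, Sfn (sigma), which is typical of epithelia.

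The RNA came from embryonic fibroblasts (MEFs) of WT mice and of Cav1KO littermates, immortalized in culture. Cav1KO cells lack caveolin-1, the scaffold protein of caveolae. Cells of each genotype were seeded sparsely on stiff or soft polyacrylamide gels and harvested 24 h later. This gave 4 groups of 2 libraries, and the comparisons ask how the 14-3-3 transcript pool differed between substrates and between genotypes. Immortalization, sparse seeding and the culture time were shared by all groups, and the cells of each genotype are a cultured line rather than a tissue. In comparisons of genotypes, loss of caveolin-1 and other differences between these lines cannot be told apart. The labels do not say that the 2 libraries of a group came from separate cultures, so p-values measure the spread between these libraries, which may be technical.

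Values are TMM-normalized CPM, for which reads per gene were scaled to a common library size that has been adjusted for composition. The libraries held 17089836 to 19944952 recovered reads, and single 14-3-3 genes took 2638 to 27243 of them, so that counting error alone was 0.606% to 1.95% of a value. Libraries of a group differed by 3.44 to 17.5 times the variance that counting gives (chi-square per degree of freedom), and none was a copy of another. Cav1 was at 949.8 to 1157 CPM in WT libraries whereas no Cav1KO library exceeded 0.411 CPM, as their labels state. Of 12 fibroblast markers, 9 were listed, with Vim the highest at 1812 to 3990 CPM, and Thy1, Lum and Fap were not. None of the epithelial, endothelial or muscle markers looked for was listed. Of 6 macrophage and leukocyte markers only Cd14 was listed (24.4 to 102.5 CPM, higher in Cav1KO cells), and of 5 neural markers only Tubb3 and Map2 (summed 9.0 to 46.6 CPM, also higher in Cav1KO cells).

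The 6 genes lie on different chromosomes except for Ywhag and Ywhah, which share chromosome 5 at a distance. In the GENCODE M21 annotation of GRCm38 they are Ywhab at chr2:163994960-164018588 on the plus strand, Ywhae at chr11:75732869-75765845 (plus), Ywhag at chr5:135908409-135934616 (minus), Ywhah at chr5:33018816-33027966 (plus), Ywhaq at chr12:21390071-21417637 (minus) and Ywhaz at chr15:36770770-36796929 (minus). All are protein coding. Their coding sequences are of nearly equal length, from 245 codons in Ywhaq and Ywhaz to 255 in Ywhae, without the stop. Aligned in pairs, they were 61.3% (Ywhae with Ywhah) to 79.0% (Ywhag with Ywhah) identical in bases, and 317 of the 723 columns without a gap (43.8%) were the same in all 6.

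The best conserved stretch of 60 coding bases, the length of a sequencing read in this study, is shown to make visible how far apart the 6 transcripts are where they are closest. It is exonic and starts at base 34 to 40 of the coding sequence, and the 38 capitals mark bases that are identical in all 6 genes.
Ywhab: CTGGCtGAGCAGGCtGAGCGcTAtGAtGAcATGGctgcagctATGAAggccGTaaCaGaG
Ywhae: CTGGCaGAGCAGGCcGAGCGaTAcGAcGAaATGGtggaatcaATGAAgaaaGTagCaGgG
Ywhag: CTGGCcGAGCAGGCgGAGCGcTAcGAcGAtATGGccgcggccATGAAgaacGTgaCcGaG
Ywhah: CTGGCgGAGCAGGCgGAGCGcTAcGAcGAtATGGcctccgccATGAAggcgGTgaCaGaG
Ywhaq: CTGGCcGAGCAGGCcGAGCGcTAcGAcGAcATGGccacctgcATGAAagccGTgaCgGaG
Ywhaz: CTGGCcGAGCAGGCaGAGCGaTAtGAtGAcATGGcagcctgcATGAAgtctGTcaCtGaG

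The variable positions are spread over the whole stretch, and no window of 60 bases was shared between any pair of the 6 genes over their full transcripts. The closest pair, Ywhag and Ywhah, still had 4 mismatches in its most alike 60 coding bases and no identical run longer than 30 bases. Reads of 60 bases can therefore be told apart between family members. Copies outside the family were a different matter. Of the 60-base windows of Ywhaz, 14.5% also occur in Gm4202, a processed pseudogene that the table lists, and 26.9% of those of Ywhaq occur in other annotated genes, with 12.3% in Cdk5rap2 and the rest mostly in pseudogenes that are not listed. For Ywhah, 7.27% of windows occur in the unlisted pseudogene Gm12428, and for Ywhab, Ywhae and Ywhag none did. The antisense gene Gm4419 overlaps exons of Ywhaq, and the counting is not stated to use strand. The levels of Ywhaz, Ywhaq and, to a lesser degree, Ywhah are uncertain to this extent.

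Ywhaz, the zeta gene, was the most abundant of the 6 by reads, 89th of all listed genes by mean CPM, and its protein is the family member found with the widest range of clients. It was at 1135 and 1183 CPM in WT cells on stiff gels and at 1005 and 1009 CPM on soft gels. In Cav1KO cells it was at 1424 and 1493 CPM on stiff gels and at 994.5 and 1014 CPM on soft gels. The Cav1KO stiff libraries thus stood above all others, whereas the soft libraries of the 2 genotypes overlapped. Fitted by limma on log2(CPM + 1), the stiff minus soft difference was 0.20 (SE 0.07; adjusted p = 0.0458) in WT and 0.54 (SE 0.07; adjusted p = 0.000355) in Cav1KO cells. On stiff gels Ywhaz was 1.26-fold higher in Cav1KO than in WT cells (log2 0.33, 95% interval 0.17 to 0.50; limma adjusted p = 0.0049). On soft gels the genotypes differed by -0.00 with an interval of -0.17 to 0.16. The pseudogene Gm4202 stood at 4.24% to 4.67% of the Ywhaz value in WT libraries and at 6.51% to 7.69% in Cav1KO libraries. With its value added to that of Ywhaz, an alternative chosen after seeing the data, the genotype difference on stiff gels was 0.37 (limma adjusted p = 0.00301) and that on soft gels 0.03 (adjusted p = 0.776).

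Ywhae encodes the epsilon protein, which prefers to form heterodimers with other members and whose gene lies in the region deleted in Miller-Dieker lissencephaly. It was the gene with the widest difference between substrates. WT cells had 1004 and 1030 CPM on stiff gels against 655.8 and 695.2 CPM on soft gels. Cav1KO cells had 926.1 and 892.8 CPM on stiff gels against 549.2 and 545 CPM on soft gels. The 4 stiff libraries all lay above the 4 soft ones, and within each substrate both Cav1KO libraries lay below both WT libraries. The stiff value was 1.51-fold the soft value in WT (log2 0.59, SE 0.07; limma adjusted p = 0.000279) and 1.66-fold in Cav1KO cells (log2 0.73, SE 0.07; adjusted p = 6.19e-05). Between genotypes, Ywhae was lower in Cav1KO cells on soft gels (log2 -0.30, SE 0.07; limma adjusted p = 0.00603). On stiff gels the difference of -0.16 missed the threshold (adjusted p = 0.0826). The call on soft gels was lost without Cav1KO soft library 2 (adjusted p = 0.0541) and under quantile normalization (log2 -0.10; adjusted p = 0.243).

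Ywhah, the eta gene, is best known from brain, and its protein is measured outside cells as a marker of rheumatoid arthritis. It was the least abundant of the 6, with 211.9 and 227.5 CPM on stiff and 183.9 and 187.3 CPM on soft gels in WT cells. In Cav1KO cells it stood at 196.6 and 200.6 CPM on stiff and at 137.9 and 140.6 CPM on soft gels. The Cav1KO soft libraries were therefore the lowest, clear of every other library. Stiff exceeded soft by 0.24 on the log2 scale in WT (SE 0.07; limma adjusted p = 0.0164) and by 0.51 in Cav1KO cells (SE 0.07; adjusted p = 0.000313). On soft gels the Cav1KO level was 0.752 times the WT level (log2 -0.41, 95% interval -0.56 to -0.26; limma adjusted p = 0.000943). On stiff gels the difference was -0.14 (interval -0.30 to 0.01; adjusted p = 0.1).

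Ywhab, the beta gene, whose protein was among the first shown to bind RAF kinases, moved in the opposite direction between genotypes. Both WT stiff libraries had 302.4 CPM, and the WT soft libraries had 224.6 and 243.3 CPM. The Cav1KO libraries had 362 and 337.9 CPM on stiff and 334.5 and 304.2 CPM on soft gels. The WT soft libraries thus lay below all others, and every Cav1KO library lay above every WT library. In WT cells the stiff value was 1.29-fold the soft value (log2 0.37, SE 0.08; limma adjusted p = 0.00485). In Cav1KO cells the difference of 0.13 did not pass the test (interval -0.05 to 0.31; adjusted p = 0.181). Ywhab was 1.36-fold higher in Cav1KO than in WT cells on soft gels (log2 0.45, SE 0.08; limma adjusted p = 0.00144). On stiff gels it missed the threshold narrowly (log2 0.21, SE 0.08; adjusted p = 0.0509) and passed it under median centring (adjusted p = 0.0222) and when genes under a mean of 5 CPM were left out (adjusted p = 0.0491).

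Ywhaq, the theta gene, was first described in T cells. It had 472.6 and 533.8 CPM on stiff and 412.6 and 414.1 CPM on soft gels in WT cells, and 516.9 and 559 CPM on stiff and 413.1 and 409.5 CPM on soft gels in Cav1KO cells. The 4 soft libraries lay close together, from 409.5 to 414.1 CPM, and below every stiff library, and the genotypes overlapped on both substrates. The stiff minus soft difference was 0.28 (SE 0.08; limma adjusted p = 0.0188) in WT and 0.39 (SE 0.08; adjusted p = 0.00349) in Cav1KO cells. Between genotypes, the difference was 0.10 on stiff gels (interval -0.08 to 0.28; adjusted p = 0.336) and -0.01 on soft gels (interval -0.19 to 0.18; adjusted p = 0.947). Cdk5rap2, the listed gene that shares windows with Ywhaq, was at 4.66 to 21.6 CPM.

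Ywhag, the gamma gene, in which variants cause a developmental epilepsy in people, varied least. It was at 589.9 and 582.7 CPM on stiff and at 509.7 and 502.4 CPM on soft gels in WT cells. In Cav1KO cells it was at 518.7 and 512.4 CPM on stiff and at 452.5 and 460.8 CPM on soft gels. The groups did not overlap, with WT stiff highest, Cav1KO stiff and WT soft next to each other, and Cav1KO soft lowest. Stiff exceeded soft by 0.21 in WT (SE 0.06; limma adjusted p = 0.0225) and by 0.17 in Cav1KO cells (SE 0.06; adjusted p = 0.0417). On stiff gels Ywhag was lower in Cav1KO cells (log2 -0.19, SE 0.06; limma adjusted p = 0.0361), and on soft gels the difference was -0.15 (adjusted p = 0.0759). The Cav1KO call between substrates was lost without any 1 of the 8 libraries (adjusted p = 0.0516 to 0.205). It was also lost by edgeR (adjusted p = 0.0512), by DESeq2 (0.0886), without the trend (0.096) and with only the compared groups fitted (0.0559). In plain CPM the difference shrank to 0.05 (adjusted p = 0.52), and under quantile normalization it turned to -0.03. The genotype call on stiff gels was lost without any 1 of the WT stiff, Cav1KO stiff or Cav1KO soft libraries (adjusted p = 0.0687 to 0.123). It was also lost under median centring (log2 -0.13; adjusted p = 0.165), by DESeq2 (0.0912), without the trend (0.0872) and with only the compared groups fitted (0.126).

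**Figure D1:**
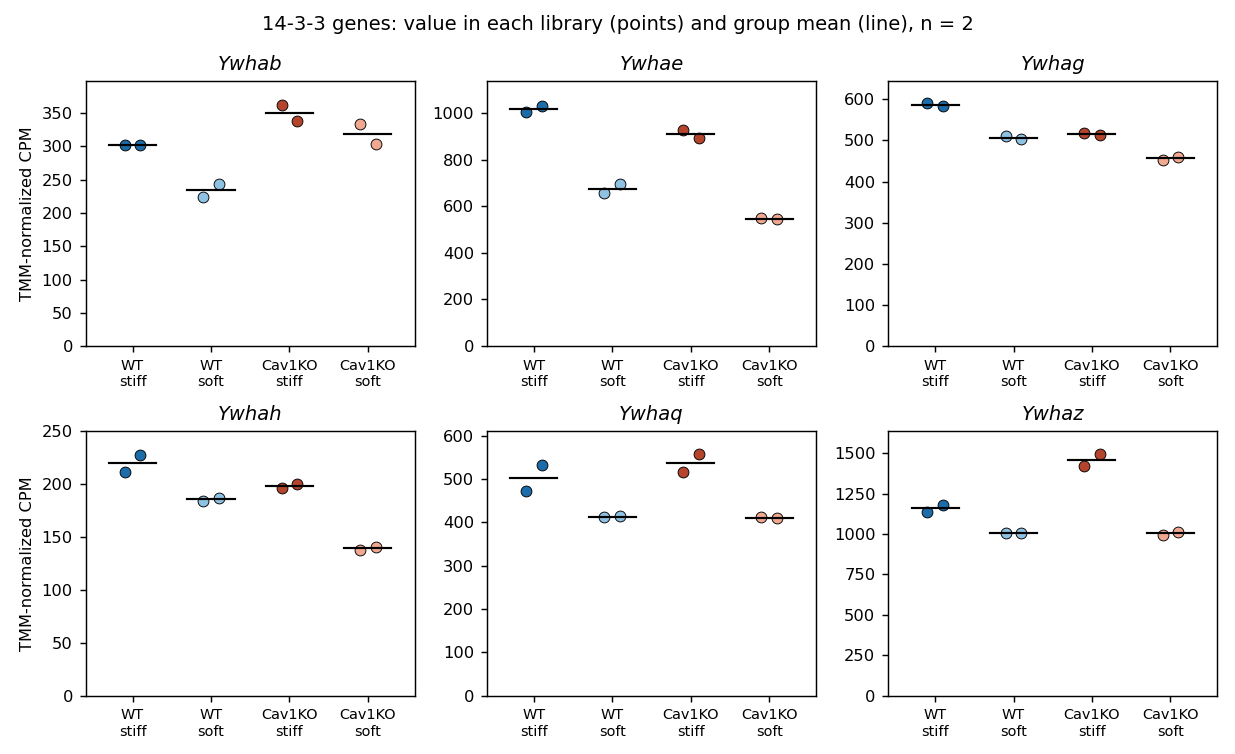
TMM-normalized CPM (y axis, linear, from 0) of the 6 14-3-3 genes in each of the 8 libraries, by group (x axis); points are libraries and lines are means of 2. Stiff libraries lie above soft ones of the same genotype in every panel, and how many of all genes separate in this way was not counted. Ywhaz is highest in Cav1KO stiff libraries (1424 and 1493 CPM), and Ywhah is lowest in Cav1KO soft libraries (137.9 and 140.6 CPM).

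On stiff against soft gels in WT cells, all 6 genes were called higher by limma, where 22.1% of all tested genes were called higher and 26.3% lower. Their median difference was 0.26 on the log2 scale, against -0.02 over all tested genes. Abundant genes as a class leaned the same way: among the 2088 genes with a mean of at least 100 CPM, a comparison chosen after seeing the data, 38.5% were called higher and the median was 0.10. The calls for Ywhag and Ywhaz were lost without the trend (limma adjusted p = 0.0605 and 0.0788). Those for Ywhag, Ywhaq and Ywhaz were lost with only the compared groups fitted (0.071, 0.0514 and 0.123). Under quantile normalization those for Ywhag (0.0504) and Ywhaq (0.052) were lost. Only the calls for Ywhab and Ywhae held whichever library was left out. Those for Ywhag and Ywhaz were lost without any 1 of the 4 WT libraries or either Cav1KO soft library (adjusted p = 0.0582 to 0.086 for Ywhag and 0.0812 to 0.165 for Ywhaz). That for Ywhaq was lost without WT stiff library 2 (adjusted p = 0.116), WT soft library 1 (0.0808) or WT soft library 2 (0.0634), and that for Ywhah without WT stiff library 2 (0.0956) or WT soft library 1 (0.0765).

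In Cav1KO cells 5 of the 6 genes were called higher on stiff gels, all but Ywhab, where 27.9% of all tested genes were called higher and 28.2% lower. The median difference was 0.45, against -0.02 over all tested genes. Among genes with a mean of at least 100 CPM, 51.2% were called higher and the median was 0.27, so a rise was the more common outcome at these levels. The calls for Ywhae, Ywhah, Ywhaq and Ywhaz held in every alternative tried. Of all genes called in this comparison, 49.7% were higher, and under plain CPM without TMM this share was 39.5%, with the median of all genes at -0.13.

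Fibroblast markers, taken as a sum, moved with the substrate in the opposite direction. Their summed level was 9255 to 9428 CPM in WT stiff and 12050 to 12200 CPM in WT soft libraries, and 4500 to 5610 CPM in Cav1KO stiff and 13530 to 13570 CPM in Cav1KO soft libraries. Of the 9 listed markers, 7 were called lower on stiff gels in WT and 9 in Cav1KO cells, Col1a2 and Vim among both. Over all tested genes, 26.3% were called lower in WT and 28.2% in Cav1KO cells. Col1a1 went the other way in WT cells, without a call (2612 and 2515 CPM on stiff against 2035 and 2273 CPM on soft gels). The part of these markers in the 14-3-3 results was not tested. In bulk RNA, fewer cells of a type and less RNA per cell cannot be told apart.

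The stiffness effect was compared between genotypes by the interaction, the WT difference minus the Cav1KO difference. By limma none of the 6 genes passed, where 4.47% of all tested genes were called higher and 6.0% lower, and edgeR and DESeq2 each called 0. Before adjustment 2 of 6 had a p under 0.05, as did 4337 of the 12494 tested genes, so this count is near the background. These were Ywhaz (-0.34, 95% interval -0.57 to -0.10; limma adjusted p = 0.0643) and Ywhah (-0.27, interval -0.48 to -0.05; adjusted p = 0.0897), both with a wider gap between substrates in Cav1KO cells. Ywhab leaned the other way at 0.24 (interval -0.01 to 0.49; adjusted p = 0.163). For Ywhae (-0.14), Ywhaq (-0.10) and Ywhag (0.04) the intervals also included 0, which does not show that the effects were equal. Without Cav1KO stiff library 1 the interaction of Ywhaz passed (limma adjusted p = 0.0437), in a fit that called 3436 genes overall against 1309 with all libraries and 110 to 388 without any 1 of 6 others. Of genes called in the interaction, 42.7% were higher, against 57.5% under plain CPM and 52.7% by DESeq2.

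On stiff gels 1 of the 6 genes, Ywhaz, was called higher in Cav1KO than in WT cells, and 1, Ywhag, lower. Over all tested genes 25.0% were called higher and 26.6% lower. Ywhaz kept its call in every alternative. The median over the 6 was -0.02, against -0.03 over all tested genes. Ywhab was the nearest to the threshold among the others.

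On soft gels 1 gene, Ywhab, was called higher in Cav1KO cells and 2, Ywhae and Ywhah, lower, against 24.1% and 29.9% of all tested genes. Ywhab and Ywhah kept their calls in every alternative tried. Ywhaq and Ywhaz had overlapping groups, and their differences of -0.01 and -0.00 changed sign with the scaling. Of all genes called here 44.7% were higher, and under plain CPM 55%. The 5 comparisons share groups of libraries, so the differences of a gene in them are not independent of each other.

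**Figure D2:**
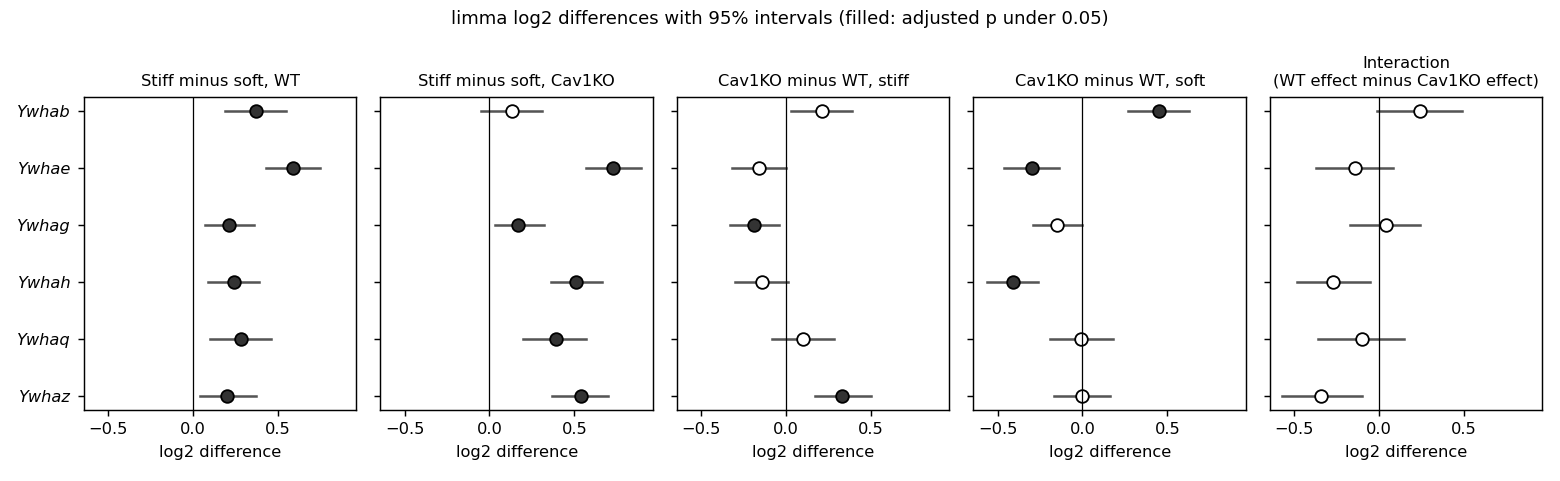
Differences on the log2(CPM + 1) scale (x axis) of each gene (y axis) in the 5 comparisons, fitted by limma over all 8 libraries; bars are 95% intervals and filled points have an adjusted p under 0.05. Every stiff minus soft difference lies to the right of 0. Of the 12494 tested genes, 6010 in WT and 5971 in Cav1KO cells do so. Among the 2088 genes with a mean of at least 100 CPM, 1203 and 1398 do. The genotype differences lie on both sides, with Ywhab to the right (0.45 on soft gels) and Ywhah to the left (-0.41).

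Levels of different genes were compared per length, as CPM per kb of the union of annotated exons, and described without a test. In this unit Ywhae was the largest part of the 14-3-3 transcript pool in WT stiff cells, with 396 CPM per kb (SD 7.13, n = 2), followed by Ywhaz with 281 (SD 8.31), Ywhaq with 164 (SD 14.2), Ywhag with 107 (SD 0.930), Ywhab with 89.4 (SD 0.00714) and Ywhah with 59.2 (SD 2.97). In Cav1KO stiff cells Ywhae and Ywhaz did not differ beyond their spread (354 CPM per kb with SD 9.17 and 354 with SD 11.9). In Cav1KO soft cells Ywhaz (244, SD 3.36) lay above Ywhae (213, SD 1.16). Ywhag lay above Ywhab in WT cells on both substrates, while in Cav1KO cells Ywhab was the higher of the 2 on both. Ywhah was the lowest in all 4 groups in this unit. The order of these 3 genes depended on the length used. Divided by the longest coding transcript instead, Ywhag lay above Ywhab in Cav1KO cells too (146.5 against 116 CPM per kb on stiff and 129.7 against 106 on soft gels). In that unit Ywhah lay above Ywhab in WT cells (124.6 against 100.4 on stiff and 105.2 against 77.7 on soft gels) and below it in Cav1KO soft cells (78.9 against 106), and in Cav1KO stiff cells the 2 did not differ beyond their spread (113 with SD 1.61 and 116 with SD 5.66).

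The summed level lay higher in stiff than in soft libraries of either genotype. The 6 genes together gave 1075 and 1119 CPM per kb in WT stiff libraries, 842.9 and 864.9 in WT soft libraries, 1130 and 1140 in Cav1KO stiff libraries and 808.7 and 803.9 in Cav1KO soft libraries. The makeup of the pool differed between all 4 groups. Ywhae accounted for 36.1% of the summed level in WT stiff cells (SD 0.391, n = 2), 30.8% in WT soft cells (SD 0.708), 31.2% in Cav1KO stiff cells (SD 1.01) and 26.4% in Cav1KO soft cells (SD 0.0327). The share of Ywhab was 8.15% (SD 0.234) in WT stiff and 8.10% (SD 0.309) in WT soft cells and reached 11.7% in Cav1KO soft cells (SD 0.736). Ywhaz had its smallest share in WT stiff cells (25.7%, SD 0.0177), followed by WT soft cells (28.65%, SD 0.431). Its share was larger in Cav1KO cells, where the stiff (31.2%, SD 0.845) and soft libraries (30.25%, SD 0.545) overlapped. Ywhah had 5.40% and 5.86% in WT stiff and soft cells and 4.72% and 4.66% in Cav1KO cells.

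**Figure D3:**
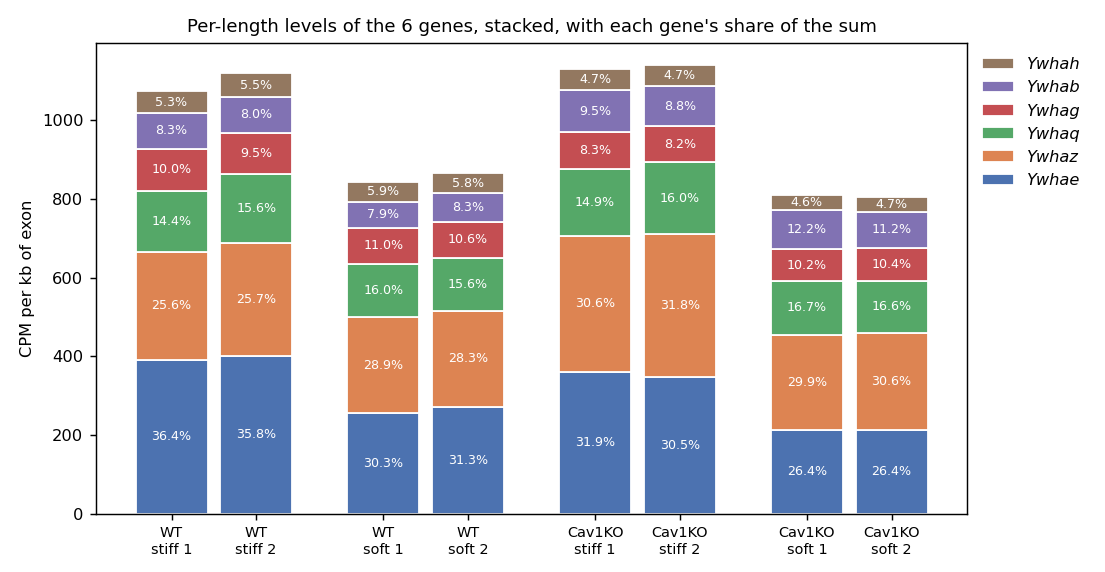
Level per length (y axis, CPM per kb of exon, from 0) of the 6 genes stacked for each library (x axis), with each gene's share of the library's sum printed in its segment. The stacks of stiff libraries are taller (1075 to 1140) than those of soft libraries (803.9 to 864.9), and the Ywhae segment shrinks from 36.4% in WT stiff library 1 to 26.4% in both Cav1KO soft libraries.

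Ratios of reads within a library do not depend on how libraries were scaled. For each read of Ywhae there were 0.301 and 0.294 reads of Ywhab in WT stiff, 0.342 and 0.350 in WT soft, 0.391 and 0.379 in Cav1KO stiff, and 0.609 and 0.558 in Cav1KO soft libraries. The groups did not overlap in this ratio, which was highest in Cav1KO soft libraries. Reads of Ywhaz per read of Ywhah separated the genotypes rather than the substrates, with 5.20 to 5.46 in the 4 WT libraries and 7.21 to 7.44 in the 4 Cav1KO libraries. Reads of Ywhag per read of Ywhah, the pair with the most alike coding sequences, were 2.56 to 2.78 in WT and Cav1KO stiff libraries together, 2.68 and 2.77 in WT soft libraries, and 3.28 in both Cav1KO soft libraries. These pairs were picked after the levels were known and carry no test.

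The genes whose pattern over the 8 libraries was most like that of each 14-3-3 gene were found by the root mean square (RMS) difference of log2(CPM + 1) profiles centred on their own means, among 10063 other genes with a mean of at least 5 CPM. For Ywhae, whose own profile had an RMS of 0.353, they were Asun (0.034), Psmd11, a proteasome lid subunit (0.039), and Tcp1, a subunit of the cytosolic chaperonin (0.043). For Ywhah they were Tesk1, a kinase that phosphorylates cofilin (0.028), Cpsf3l (0.033) and Eif2b5, a subunit of a translation initiation factor (0.036). For Ywhaz they were Stub1, a ubiquitin ligase that works with chaperones (0.035), the receptor tyrosine kinase Tyro3 (0.037) and Dars (0.038). For Ywhab they were Rpn2 of the oligosaccharyltransferase complex (0.052), Raly (0.060) and Lfng (0.066). For Ywhaq they were Uqcrb of respiratory complex III (0.038), Nelfe (0.044) and Strn4 (0.048). For Ywhag they were Ganab, a glucosidase of the endoplasmic reticulum (0.030), Spop (0.031) and the receptor tyrosine kinase Axl (0.037).

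Members of the family were not each other's nearest genes. The closest pair, Ywhaq and Ywhaz, differed by 0.091, which made Ywhaz the 150th nearest gene of Ywhaq. The farthest pair, Ywhab and Ywhae, differed by 0.362, more than either profile varied by itself. The most alike coding sequences, those of Ywhag and Ywhah, had profiles that differed by 0.136, and Ywhae, with the least alike sequences, was 0.151 from Ywhah. The 15 pairs share their libraries and genes, so no correlation is given.

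**Figure D4:**
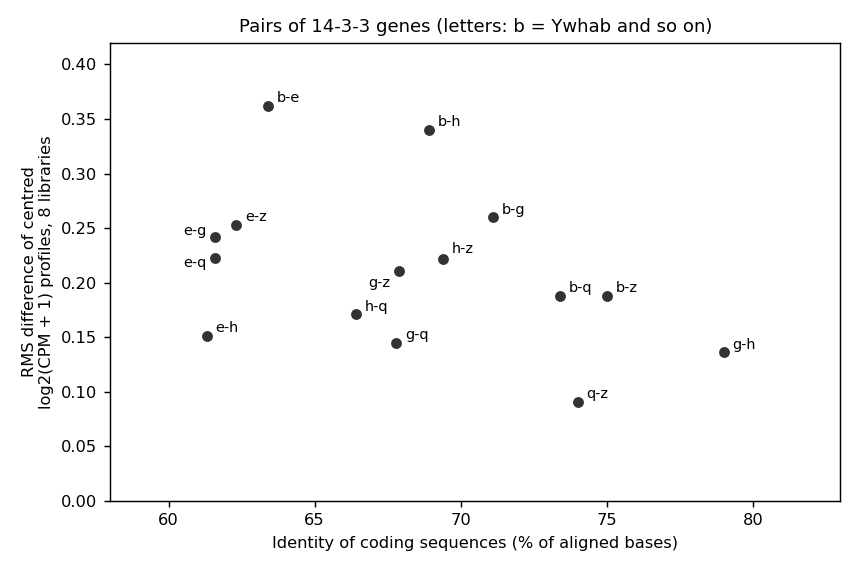
Each of the 15 pairs of 14-3-3 genes by identity of their coding sequences (x axis, percent of aligned bases) and RMS difference of their centred log2(CPM + 1) profiles over 8 libraries (y axis). The pair Ywhaq and Ywhaz is lowest (74.0% identity, 0.091), the pair Ywhab and Ywhae is highest (63.4%, 0.362), and the 79.0% identical pair Ywhag and Ywhah lies at 0.136.

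Promoter sequences from RefSeq (GRCm38.p6) were at hand for Ywhae, Ywhag, Ywhah and Ywhaq, and not for Ywhab and Ywhaz. They were searched on both strands from 250 bases before to 50 after the start site. The motifs were chosen after the data were seen. Ywhah held the cAMP response element (CRE) TGACGTCA 96 bases before its start, a motif in 1.79% of all 32851 promoters of this length. Ywhag held only its shorter core TGACG, read on the other strand, 16 bases before its start, and 20.8% of all promoters hold this core, which the full element also contains. Ywhae and Ywhaq held neither. For Ywhaq the 250 bases before the RefSeq start are chr12:21417437-21417686, which overlaps the GENCODE gene up to 21417637. The bases before its GENCODE start were not searched as such. The 250 bases before the start are shown for Ywhag and Ywhah, with the CRE and the core in capitals. This pair was chosen because its coding sequences are the most alike and its genotype differences on soft gels were unlike. These were -0.15 for Ywhag (limma adjusted p = 0.0759) and -0.41 for Ywhah, while on stiff gels they were -0.19 for Ywhag and -0.14 for Ywhah. Any part of the motifs in these differences was not tested. Ywhah lies at chr5:33018566-33018815 (plus strand) and Ywhag at chr5:135934642-135934891 (minus strand).
Ywhah: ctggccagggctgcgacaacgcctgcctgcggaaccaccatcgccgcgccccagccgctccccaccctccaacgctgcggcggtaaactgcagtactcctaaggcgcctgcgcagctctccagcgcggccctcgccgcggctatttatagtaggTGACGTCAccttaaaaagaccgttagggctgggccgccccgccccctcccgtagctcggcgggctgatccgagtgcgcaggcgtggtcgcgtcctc
Ywhag: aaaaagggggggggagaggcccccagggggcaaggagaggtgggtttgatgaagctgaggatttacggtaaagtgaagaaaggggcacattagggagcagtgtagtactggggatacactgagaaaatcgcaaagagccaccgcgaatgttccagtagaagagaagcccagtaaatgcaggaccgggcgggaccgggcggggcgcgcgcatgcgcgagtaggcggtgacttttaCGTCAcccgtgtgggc

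The bases GGAATG, the core of TEAD sites through which YAP acts, were in 14.7% of all promoters and in none of the 4. The E-box CACGTG (7.15% of all) and the CArG box of serum response factor (1.63% of all) were also in none of the 4. The GC box GGGCGG (35.7% of all) was in Ywhae, Ywhag and Ywhah, and CCAAT (37.4% of all) in Ywhag and Ywhaq. These are matches of letters and do not show binding.

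The proteins to which 14-3-3 dimers attach were followed as a list of 50 client genes, of which 49 were listed and Hdac9 was not. In WT cells 6 clients were called higher and 14 lower on stiff gels (12.2% and 28.6% of those tested, against 22.1% and 26.3% of all genes), with a median of 0.00 against -0.02 over all tested genes. The largest rises were those of Cdc25a, a phosphatase that drives cell cycle entry (log2 0.90; limma adjusted p = 0.000428), and the RAC exchange factor Tiam1 (0.76; adjusted p = 0.0196). The largest falls were those of Hdac5, a histone deacetylase (-1.11; adjusted p = 6.87e-05), and Zfp36l1, which promotes mRNA decay (-1.05; adjusted p = 9.85e-05). In Cav1KO cells 3 clients were called higher (Cdc25a, Cdc25c and Wee1) and 19 lower (6.12% and 38.8%, against 27.9% and 28.2% of all genes), with a median of -0.24. Here Cdc25a differed by 0.98 and Wee1, the kinase that opposes the CDC25 phosphatases, by 0.56, and the largest falls were those of Kif13b, a kinesin (-1.42), and Irs2, an insulin receptor adaptor (-1.09). The FOXO factors Foxo1, Foxo3 and Foxo4, held in the cytoplasm by 14-3-3 after AKT phosphorylation, were called lower on stiff gels in both genotypes.

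The interaction of genotype and substrate was called for 5 clients, Abl1 (0.97; limma adjusted p = 0.0293), Tiam1 (1.34; adjusted p = 0.0373), Irs2, Pard3 and Tsc2, all with a WT difference above the Cav1KO difference (10.2% of clients, against 4.47% of all genes). Between genotypes 11 clients were called higher and 10 lower in Cav1KO cells on stiff gels (22.4% and 20.4%, against 25.0% and 26.6% of all genes). On soft gels 16 were higher and 8 lower (32.7% and 16.3%, against 24.1% and 29.9%). Pard3, a polarity scaffold, was higher in Cav1KO cells on soft gels (34.3 against 10.8 CPM, log2 1.58), and Irs1 was higher on both substrates (log2 0.82 and 1.29). Crtc2, a CREB coactivator, was lower on stiff gels (-0.89). On soft gels Crtc2 and Zfp36l1 were the clients with the named falls (both -0.79).

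The client pair of the Hippo pathway behaved differently from each other. Yap1 was at 141.1 to 158.8 CPM in all 8 libraries and was called in none of the comparisons. Wwtr1, which encodes TAZ, was at 151.9 to 184.9 CPM in WT and at 337.3 to 384.4 CPM in Cav1KO libraries, without overlap (log2 1.15 on stiff and 1.09 on soft gels; limma adjusted p = 2.97e-06 and 3.79e-06). Between substrates, Wwtr1 was lower on stiff gels in WT (log2 -0.21; limma adjusted p = 0.0342) and was not called in Cav1KO cells (-0.15; adjusted p = 0.0965). The genes of the LATS kinases that phosphorylate YAP and TAZ had lower CPM than Yap1 and Wwtr1, without a correction for length. Lats1, at 32.8 to 53.4 CPM, was lower in Cav1KO cells on stiff gels (log2 -0.44; adjusted p = 0.0217), and Lats2, at 19.7 to 33.1 CPM, was lower on stiff than on soft gels in Cav1KO cells (-0.33; adjusted p = 0.0394). In WT cells the Lats2 difference was -0.30 (adjusted p = 0.0626), with an interaction of 0.03 (adjusted p = 0.912).

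Of 25 kinases that phosphorylate 14-3-3 sites, all were listed. In WT cells 5 were called higher on stiff gels (Akt1, Chek1, Pak1, Prkaca and Sgk1) and 3 lower (Pim1, Pim3 and Prkd2), that is 20% and 12% against 22.1% and 26.3% of all genes. In Cav1KO cells 9 were higher and 6 lower, 36% and 24% against 27.9% and 28.2% of all genes. Akt1 was at 282.9 and 283.7 CPM in WT stiff and at 183.1 and 187.9 CPM in WT soft libraries (log2 0.61; limma adjusted p = 0.000184). In Cav1KO cells the checkpoint kinase Chek1 (1.10) and Sgk1, a relative of AKT (0.91), had the largest rises, and Prkd2 (-1.02) and Sik1 (-0.74) the largest falls. Sgk1 was lower in Cav1KO than in WT cells on both substrates (log2 -0.73 and -1.24), with 895.6 and 1030 CPM in WT stiff against 550.2 and 608.3 CPM in Cav1KO stiff libraries. On soft gels it had 674 and 793.1 CPM in WT and 304.7 and 312.1 CPM in Cav1KO libraries. Pak1, a RAC effector, was lower in Cav1KO cells on stiff (-1.66) and soft gels (-1.31), and Prkacb, a catalytic subunit of protein kinase A, was higher on both (0.69 and 0.68). On stiff gels 6 kinases were called higher and 5 lower in Cav1KO cells (Lats1, Mark4, Pak1, Prkaca and Sgk1), and on soft gels 4 were higher (Akt1, Prkaa2, Prkacb and Sik1) and 6 lower. These are 24% and 20% on stiff gels, against 25.0% and 26.6% of all genes, and 16% and 24% on soft gels, against 24.1% and 29.9%. The interaction was called for Pim3 (-0.86) and Rps6ka1 (-0.64), 8% of the kinases against 6.0% of all genes called lower.

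Phosphatases that can remove these phosphates were followed as 10 subunit genes of PP1, PP2A and calcineurin. On stiff gels 5 were called higher in WT cells (Ppp1ca, Ppp1cc, Ppp2cb, Ppp2r1b and Ppp3r1) and 8 in Cav1KO cells, with medians of 0.18 and 0.51 against -0.02 over all genes in each. These are 50% and 80% of the subunits, against 22.1% and 27.9% of all genes and 38.5% and 51.2% of genes with a mean of at least 100 CPM. The catalytic subunit of PP1, Ppp1ca, was at 797 and 941 CPM in WT stiff against 675.6 and 689 CPM in WT soft libraries (log2 0.34; limma adjusted p = 0.0342), and the difference was 0.80 in Cav1KO cells (adjusted p = 0.000459). Ppp2cb, a catalytic subunit of PP2A, differed by 0.38 and 0.70. Ppp3ca, the alpha catalytic subunit of calcineurin, was the 1 gene called lower, with -1.0 in WT and -1.71 in Cav1KO cells. Between genotypes 3 were higher in Cav1KO cells on stiff gels (Ppp1cb, Ppp1cc and Ppp2r1b) and none was called lower (30% higher, against 25.0% of all genes). On soft gels Ppp3ca was higher (0.51) and 5 were lower (Ppp1ca, Ppp2ca, Ppp2cb, Ppp3cb and Ppp3r1), 50% against 29.9% of all genes. The interaction was called for Ppp2ca (-0.44; limma adjusted p = 0.0415). Genes named in these lists without a value complete counts of 5 or fewer, except Foxo1, Foxo3 and Foxo4. Those 3 were picked from the longer lists of clients called lower on stiff gels. All genes named without a value were named after their values were seen.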

How the data were processed

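Poly(A) RNA of the 8 samples was made into libraries with a NEBNext Ultra kit, and single reads of 60 nt were taken. The submitters' processing notes name CASAVA 1.8.2, cutadapt, RSEM 1.2.3 and GRCm38 without their roles. RSEM apportions reads that match several genes. The authors deposited a signal of 1 value per gene and library, reads scaled to TMM-normalized CPM, for 12528 genes, and the filter behind this list is not given in the sources used here. All values (100%) were whole multiples of 1 read, within 0.01 reads, so reads were recovered for edgeR 4.0.16 and DESeq2 1.42.0. In the 5 comparisons, in the order of the report, edgeR called 5934, 6894, 902, 6417 and 6639 genes and limma 6046, 7015, 1309, 6456 and 6749. TMM assumes that most genes do not differ, and a change of all transcripts cannot be seen.

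The main test was that of limma 3.58.1 (R 4.3.3), two-sided, on log2(CPM + 1) of the 12494 genes that reached 1 CPM in 2 or more libraries. All 8 libraries were fitted together, with the variance trended on the mean, which left 4 residual degrees of freedom. Adjusted p-values are by Benjamini and Hochberg over those genes, and a gene was called under 0.05. Folds are those of CPM + 1. The fit was tested on simulated data in which few genes changed, in a single group, and all genes shared the same spread beyond counting. These settings are simpler than the real libraries, so the simulation does not show how the fit performs on them. Alternatives were pseudocounts of 0.5 and 5, no filter, a mean of at least 5 CPM, no trend, only the compared groups, edgeR, DESeq2, median centring, quantile normalization, plain CPM, a replicate block and each library left out. With a group reduced to 1 library, that library was assumed to vary like the others.

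Named genes were the 6 14-3-3 genes, Cav1, Sfn, Yap1, Wwtr1, Lats1 and Lats2, the 3 genes most like each member, listed genes sharing 60-nt windows with a member, and, in each list and comparison, the 2 called genes that rose most and the 2 that fell most among those averaging 5 CPM or more. The 14-3-3 genes and the lists were chosen with earlier results of these data known. Coding sequences were aligned with MAFFT 7.526. Amino acid sequences were not used here. For 1 client gene the named value is not reported here.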

Additional observations from a re-analysis of the deposited data

How the results depend on the processing

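Over the 30 differences (6 genes in 5 comparisons), 16 passed the limma test, and 9 of these passed in every alternative: between substrates Ywhab in WT, Ywhae in both genotypes and Ywhah, Ywhaq and Ywhaz in Cav1KO cells, and between genotypes Ywhaz on stiff and Ywhab and Ywhah on soft gels. Of 599 alternative values, 532 kept direction and side of the threshold, 49 lost a call, 4 gained one and 14 changed sign, 1 of them of a called difference (Ywhag between substrates in Cav1KO cells, -0.031 under quantile normalization). The other reversals were small: under quantile normalization Ywhab between substrates in Cav1KO cells (-0.008), and on soft gels Ywhaq (0.061) and Ywhaz (0.104) between genotypes, which were 0.016 and 0.019 by DESeq2, 0.004 and 0.007 under median centring, and 0.105 and 0.108 in plain CPM. Ywhaz there was also 0.027 with Gm4202 added and -0.018 to 0.010 with 1 library left out, above 0 only without Cav1KO soft library 1. The interaction was -0.007 for Ywhag under median centring and 0.011 for Ywhaq in plain CPM.

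Between substrates in WT cells 3 of the genes passed when only the compared groups were fitted and 2 to 6 with 1 library left out. Between genotypes on stiff gels 1 passed without the trend, with only the compared groups and by DESeq2, and 1 to 2 with 1 library left out. For the interaction 0 to 1 passed with 1 library left out. Over all genes, calls between substrates in WT cells were 3913 to 6509 with 1 library left out, and interaction calls 110 to 3436, with 705 without the trend. The median of all genes was moved by plain CPM from -0.02 to -0.13 between substrates in Cav1KO cells, from -0.07 to 0.04 in the interaction and from -0.03 to 0.07 between genotypes on soft gels. The cause of these changes was not tested. Same-numbered libraries did not deviate from their group means in a direction common to all 4 groups. Those of WT stiff and Cav1KO stiff deviated partly together (correlation of the deviations 0.415). Those of WT stiff and WT soft deviated partly in opposite directions (-0.367), and the other pairs of groups lay between. With a replicate block by number, 6, 5, 0, 2 and 3 of the 6 genes passed in the 5 comparisons, as without it. This block is a single shift common to all 4 groups, so it cannot take up a deviation that only some groups share. A batch that does not follow the numbers was not tested. Depth limits little here, since 2638 reads were the fewest for any of the 6. With 2 libraries a group, 4 residual degrees of freedom limit the precision.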
